A study of Mus musculus with 6 samples.

Results

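The NADPH oxidase subunits described here are 6 genes, Cybb, Cyba, Ncf1, Ncf4, Rac2 and Nox4, out of 20972 gene symbols on the array. They were taken as the non-control probes that the array design pairs with a RefSeq transcript of one of them, which gave 9 of 55681 probes. In at least 1 group, each of the 9 probes exceeded background clearly on both of its arrays, so no member was lost to the filter on dim signal. The measurements came from 6 Agilent arrays with 1 colour (the dye Cy3), hybridised with total RNA of mouse muscle that the labels call gastrocnemius, a calf muscle. MDX_JJ101 comprised MDX mice given JJ101, described in the labels as a bioceramic water. MDX_tap comprised MDX mice on tap water, and B10_tap comprised C57BL/10 mice on tap water. Each group had 2 arrays and 10 months on its water. MDX is a mouse line with a mutation in the dystrophin gene Dmd in all cells, and C57BL/10 served as the wild type. The labels give no age or sex, and they number the replicates without saying that these came from separate mice, so the p-values measure the spread between these arrays, which may be technical.

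NADPH oxidases move electrons from NADPH across a membrane to oxygen and so make superoxide or hydrogen peroxide. In phagocytes the catalytic subunit gp91phox (Cybb, also called NOX2) sits in the membrane with its partner p22phox (Cyba), and the enzyme turns on when the cytosolic proteins p47phox (Ncf1) and p40phox (Ncf4), among others, and the GTPase Rac2 join them. NOX4 (Nox4) is a second catalytic subunit that needs p22phox but not the cytosolic proteins, and it is found in fibroblasts, endothelium and muscle. Oxidase-derived oxidants have been studied in dystrophic muscle, where macrophages infiltrate damaged fibres.

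Levels are log2 signals set against the 75th percentile of their own array, so a level of 0 equals that percentile. On this scale 4 of the 6 subunits (Nox4, Cybb, Ncf4 and Ncf1) fell in MDX_JJ101 relative to MDX_tap, by 0.64 to 1.52. Over all genes, 16.1% fell and 19.9% rose in that comparison. Rac2 was also lower without passing the test, and Cyba differed by 0.020. Against B10_tap, all 6 subunits had a positive difference in MDX_tap, of 0.35 to 1.71, but none passed the test across all genes. Of all genes, 41.6% had a positive difference there and 0.024% passed. Between MDX_JJ101 and B10_tap the differences lay between -0.38 and 0.37 and none passed, while 33.6% of all genes did.

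Where the arrays stand bears on each of these results. All 6 lay on 1 slide, with MDX_JJ101 in row 2, columns 3 and 4, MDX_tap in row 1, columns 3 and 4, and B10_tap in row 1, columns 1 and 2. The JJ101 water and the slide row therefore cannot be told apart, nor can MDX_tap and B10_tap be told apart from the slide columns. The MDX_JJ101 arrays had fewer spots well above background, 43.8% and 42.5%, against 49.6% and 48.1% for MDX_tap and 51.6% and 51.4% for B10_tap. Replicates correlated at 0.989 in MDX_JJ101, 0.993 in MDX_tap and 0.995 in B10_tap. The labelled tissue was checked against its markers. Of 12 heart muscle markers, 11 were tested and all 11 were well above background on all 6 arrays. Mylpf, Myod1 and Myog, from the list of skeletal muscle markers, were well above background on none. Of 14 skeletal muscle markers, 5 and 4 were well above background on the MDX_JJ101 arrays, against 11 and 11 on the MDX_tap arrays and 11 and 10 on the B10_tap arrays. Myh4, the myosin heavy chain of the fastest fibres, was not well above background in MDX_JJ101 and had a mean level of 2.22 in MDX_tap. It was at least 46.3-fold lower in MDX_JJ101 (limma adjusted p of the fitted difference = 0.013). In MDX_JJ101 relative to MDX_tap, 5 of 11 heart markers rose and 0 fell, with a median of 0.56, and 7 of 11 skeletal muscle markers passed as lower and 1 rose. Over all genes 19.9% rose and 16.1% fell. Relative to B10_tap, 5 heart markers rose and 0 fell in MDX_JJ101, beside 16.2% and 17.4% of all genes. The summed signal of the heart markers, in units of each array's 75th percentile, was 7820.2 and 7653 in MDX_JJ101, 6136 and 6575 in MDX_tap and 6659 and 6611 in B10_tap. That of the skeletal muscle markers was 258 and 276 in MDX_JJ101, 148 and 151 in MDX_tap and 154 and 151 in B10_tap. Most of this sum came from Ckm and Acta1, so it does not follow the other skeletal markers. Relative to MDX_tap, 9 of 11 skeletal markers had a negative difference in MDX_JJ101 and 2 (Ckm and Acta1) a positive one. Of 11 heart markers, 10 had a positive difference. The higher sum in MDX_JJ101 is therefore not a rise of the skeletal list. In MDX_JJ101 Ckm had levels of 7.15 and 7.53 and Acta1 of 6.82 and 6.47. In MDX_tap they were 6.01 and 5.94 for Ckm and 6.23 and 5.56 for Acta1. The heart markers called higher relative to MDX_tap became 0 with spike-in scaling (median 0.16), with the slide column as a block and without MDX_tap replicate 2, 2 without MDX_tap replicate 1, and 3 with only the 2 groups compared and without either B10_tap array. Relative to B10_tap they became 1 with spike-in scaling (median -0.12) and 0 without either B10_tap array. Between MDX_tap and B10_tap 0 markers of either list passed. At an unadjusted p under 0.05 there were 3 heart and 2 skeletal markers, beside 21.0% of all genes. The part of these tissue markers in the subunit results was not tested. With 2 arrays in each group and every array carrying heart markers, no comparison could be made without such arrays.

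Promoter sequences of 4 of the 6 genes were found in RefSeq's table for assembly GRCm38.p6, and they are shown because 3 of the 4 genes, Cybb, Ncf1 and Nox4, fell together in MDX_JJ101 and the fourth, Cyba, did not. Ncf4 and Rac2 are named only. Each window runs from 250 bases before the listed start to 20 after it, 5′ to 3′ along the gene. Capitals mark a match to one of 3 motifs, searched on both strands. The motifs were GAGGAA, a core bound by PU.1, the product of the myeloid factor gene Spi1, TTCNNNGAA, the site type bound by STAT factors, and TATAAA, the TATA box. None of them overlapped another in these windows.
Cybb, chrX:9469305-9469574, minus strand: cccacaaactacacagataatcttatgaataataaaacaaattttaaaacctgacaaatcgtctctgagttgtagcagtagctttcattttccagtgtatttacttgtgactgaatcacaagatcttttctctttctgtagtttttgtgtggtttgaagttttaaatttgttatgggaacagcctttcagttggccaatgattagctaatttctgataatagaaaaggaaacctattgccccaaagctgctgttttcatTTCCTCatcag
Cyba, chr8:122432921-122433190, minus strand: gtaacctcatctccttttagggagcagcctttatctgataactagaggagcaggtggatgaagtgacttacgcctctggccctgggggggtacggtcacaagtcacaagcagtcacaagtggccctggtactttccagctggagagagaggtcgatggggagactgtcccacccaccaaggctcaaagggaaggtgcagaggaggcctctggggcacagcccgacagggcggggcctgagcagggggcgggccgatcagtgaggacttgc
Ncf1, chr5:134229606-134229875, minus strand: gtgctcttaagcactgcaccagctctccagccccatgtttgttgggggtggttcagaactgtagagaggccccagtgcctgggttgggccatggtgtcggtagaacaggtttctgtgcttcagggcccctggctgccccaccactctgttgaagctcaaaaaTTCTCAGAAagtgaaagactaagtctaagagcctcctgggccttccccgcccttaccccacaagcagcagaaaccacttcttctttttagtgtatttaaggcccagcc
Nox4, chr7:87246399-87246668, plus strand: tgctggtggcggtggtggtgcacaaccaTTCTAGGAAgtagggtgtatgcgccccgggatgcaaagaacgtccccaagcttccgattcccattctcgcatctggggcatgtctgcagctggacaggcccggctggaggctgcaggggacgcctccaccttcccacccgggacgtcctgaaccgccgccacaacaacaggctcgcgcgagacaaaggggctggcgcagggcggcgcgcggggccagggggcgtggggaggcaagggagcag
The windows differed in composition, with 34.1% G and C for Cybb, 60.0% for Cyba, 54.1% for Ncf1 and 67.4% for Nox4. The motifs were searched over 300 bases, from 250 before the start to 50 after it, in these 4 genes and in all promoters. The printed windows leave out the end of that stretch. GAGGAA occurred once, on the reverse strand of the Cybb window just after the start (bases 10 to 15). It was present in 28.3% of all 32851 promoters of 300 bases. TTCNNNGAA occurred in Ncf1, 88 to 80 bases before the start, and in Nox4, 222 to 214 bases before it, and 8.30% of all promoters held it. TATAAA, held by 13.6% of promoters, was in none of the 4. For Cybb and Nox4 the listed start lies inside the span that the same assembly's gene table gives the gene, chrX:9435252-9487766 and chr7:87244430-87398710. A match is a description of the letters and not evidence of binding.

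Cybb encodes gp91phox, the catalytic core of the phagocyte oxidase. Its level was -1.95 and -2.86 in MDX_JJ101, -1.16 and -1.49 in MDX_tap and -1.97 and -2.09 in B10_tap. Both MDX_JJ101 arrays lay below both MDX_tap arrays, and the B10_tap arrays fell between the 2 MDX_JJ101 values. Cybb fell by 1.08 ± 0.31 (SE) in MDX_JJ101 relative to MDX_tap, a level 2.12-fold lower, which limma's moderated test placed just inside the threshold (Benjamini-Hochberg adjusted p = 0.048). The difference between MDX_tap and B10_tap was 0.71 ± 0.31 (adjusted p = 0.273). The signal was dim, 2.60 and 1.35 times the lowest signal called well above background in MDX_JJ101, against 7.89 and 5.34 times in MDX_tap and 4.79 and 4.11 times in B10_tap. Where every probe rather than 1 per gene was fitted, the adjusted p rounded to 0.050 and the call was lost.

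Nox4 encodes the catalytic subunit that is active without the cytosolic proteins. Of the 6 subunits it had the largest difference, in size, both in MDX_JJ101 relative to MDX_tap and in MDX_tap relative to B10_tap. Its level was -0.49 and -1.64 in MDX_JJ101, 0.54 and 0.38 in MDX_tap and -1.47 and -1.04 in B10_tap. The MDX_tap arrays stood above all 4 others, while the 2 MDX_JJ101 arrays differed from each other by 1.15 and spanned the B10_tap values. Nox4 fell by 1.52 ± 0.39 in MDX_JJ101 relative to MDX_tap, 2.87-fold (adjusted p = 0.037). Nox4 was 1.71 ± 0.39 higher in MDX_tap than in B10_tap, 3.28-fold, and did not pass (adjusted p = 0.130). Of all tested genes, 99.5% had a lower difference in that comparison.

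Nox4 was the one member with 3 probes, and the 2 brighter ones moved alike. The second, A_55_P1972039, read -1.38 and -2.46 in MDX_JJ101, -0.31 and -0.40 in MDX_tap and -2.17 and -2.01 in B10_tap. Its difference was -1.56 ± 0.35 in MDX_JJ101 relative to MDX_tap (adjusted p over all probes = 0.028) and 1.73 ± 0.35 in MDX_tap relative to B10_tap (adjusted p = 0.117). The third, A_51_P369311, was well above background only on the 2 MDX_tap arrays. It passed the filter on dim signal only through that group, so its higher reading there adds no separate support. In MDX_JJ101 this probe was at least 1.17-fold below MDX_tap (adjusted p = 0.014), and it was at least 2.14-fold higher in MDX_tap than in B10_tap (adjusted p = 0.076). These bounds set the brighter group's mean against the lowest signal called well above background on the dimmer arrays. Beside a bound, here and elsewhere, the adjusted p tests the fitted difference and not the bound. That difference uses readings that were not well above background.

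**Figure D1:**
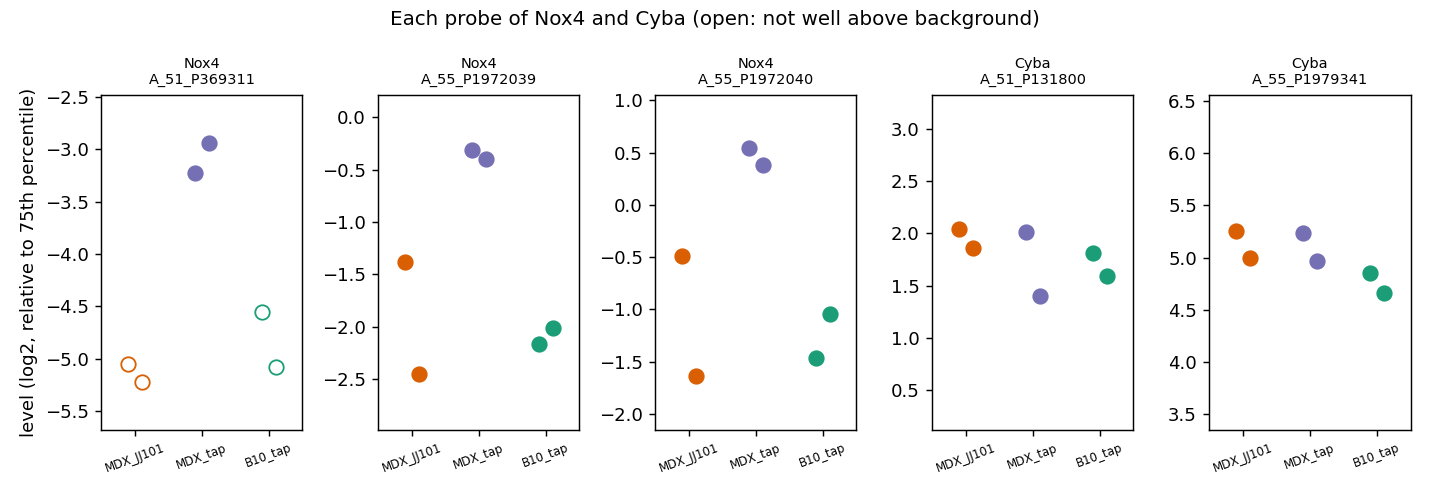
Level of each probe of Nox4 (left 3 panels) and Cyba (right 2 panels) on each array, in log2 relative to the array's 75th percentile, with open circles where the probe was not well above background. All 3 Nox4 probes are highest on the MDX_tap arrays. The probe A_51_P369311 is filled only there and passed the filter on dim signal only through that group.

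Cyba encodes p22phox, the membrane partner of both catalytic subunits. It read 5.25 and 4.99 in MDX_JJ101, 5.23 and 4.97 in MDX_tap and 4.85 and 4.66 in B10_tap. The 2 MDX groups overlapped and both lay above the B10_tap arrays. The difference between MDX_JJ101 and MDX_tap was 0.020 ± 0.16, with a 95% interval of -0.38 to 0.42 (adjusted p = 0.927). Its sign turned to -0.20 in the authors' series table and to -0.38 with spike-in scaling, which itself moved the median of all genes by -0.40. Against B10_tap, Cyba was 0.35 ± 0.16 higher in MDX_tap (adjusted p = 0.280) and 0.37 ± 0.16 higher in MDX_JJ101 (adjusted p = 0.124), and the second turned to -0.030 with spike-in scaling. A second Cyba probe, A_51_P131800, gave 0.24 for MDX_JJ101 relative to MDX_tap and 0.0083 for MDX_tap relative to B10_tap, so the higher level in MDX_tap was not seen with that probe.

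Ncf1 encodes p47phox, the organiser whose phosphorylation starts assembly of the phagocyte enzyme. Its level was -1.13 and -1.01 in MDX_JJ101, -0.32 and -0.54 in MDX_tap and -1.37 and -1.43 in B10_tap. The 3 groups did not overlap, with MDX_tap highest and B10_tap lowest. It had the smallest standard error of the 6, and it fell by 0.64 ± 0.12 in MDX_JJ101 relative to MDX_tap, 1.56-fold (adjusted p = 0.018). In MDX_tap it was 0.97 ± 0.12 higher than in B10_tap, 1.96-fold, with the smallest adjusted p of the members in that comparison (0.068). MDX_JJ101 was 0.33 ± 0.12 above B10_tap (adjusted p = 0.085), a difference that turned to -0.068 with spike-in scaling.

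Ncf4 encodes p40phox, which binds the membrane lipid phosphatidylinositol 3-phosphate. It read 0.92 and 0.37 in MDX_JJ101, 1.79 and 1.34 in MDX_tap and 0.90 and 0.56 in B10_tap. The MDX_tap arrays were above the other 4, which overlapped. Ncf4 fell by 0.92 ± 0.26 in MDX_JJ101 relative to MDX_tap, 1.89-fold (adjusted p = 0.046), and was 0.84 ± 0.26 higher in MDX_tap than in B10_tap (adjusted p = 0.178).

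Rac2 encodes the GTPase of blood cells that activates the assembled oxidase. It read -0.03 and -0.39 in MDX_JJ101, 0.84 and 0.12 in MDX_tap and -0.29 and -0.52 in B10_tap. The groups did not overlap between MDX_JJ101 and MDX_tap, but the 2 MDX_tap arrays lay 0.72 apart, the widest gap of any member in that group. The difference was -0.69 ± 0.27 in MDX_JJ101 relative to MDX_tap, 1.62-fold lower (adjusted p = 0.101), and 0.89 ± 0.27 in MDX_tap relative to B10_tap (adjusted p = 0.176). Its probe was printed in 10 spots on each array, and the SD over those spots was 0.065 to 0.104.

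**Figure D2:**
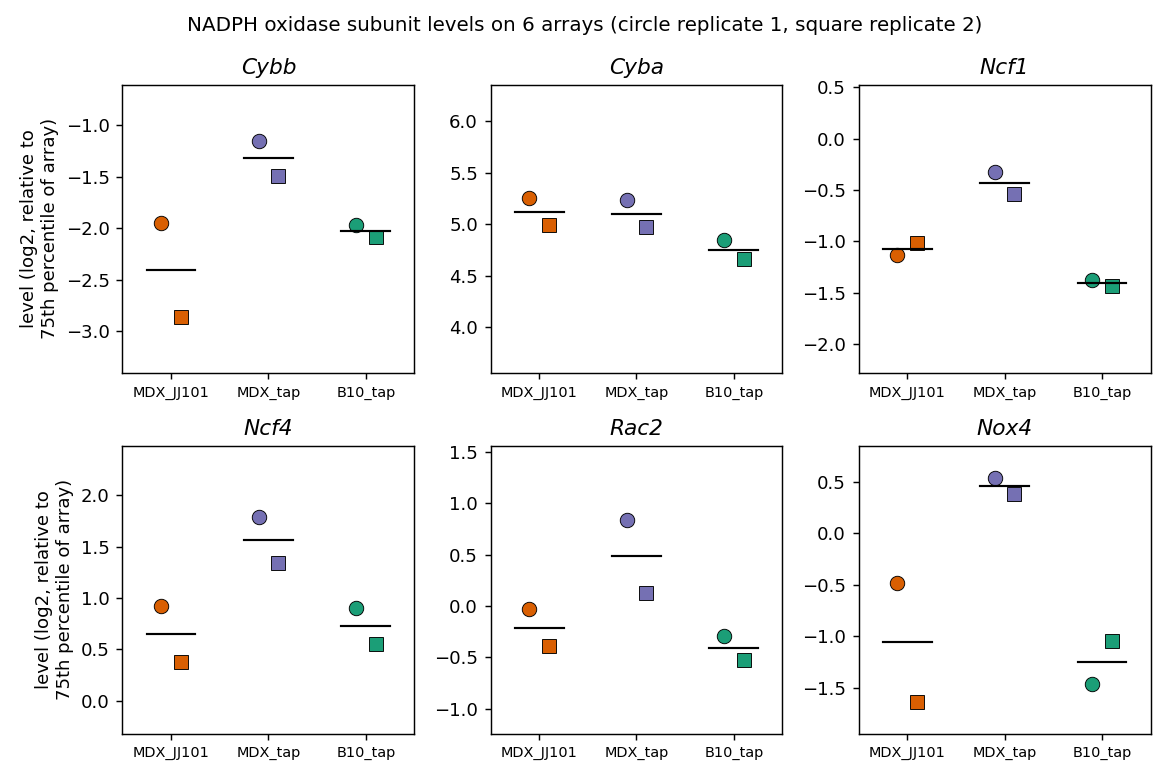
Level of each subunit on each of the 6 arrays, in log2 relative to the array's 75th percentile, with circles for replicate 1, squares for replicate 2 and a line at the mean of each group. Each panel spans the same number of log2 units but is centred on its own gene. The MDX_tap arrays lie above the MDX_JJ101 arrays for every subunit but Cyba, and above the B10_tap arrays for all 6.

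Of the subunits as a group, 4 of the 6 subunits fell in MDX_JJ101 relative to MDX_tap and 0 rose, with a median difference of -0.80. The median over all genes was 0.00086. In this comparison 36.1% of all 20869 genes and transcripts passed, 19.9% higher and 16.1% lower, so calls were common on these arrays. Both MDX_JJ101 arrays lay below both MDX_tap arrays for 5 of 6 subunits, as they did for 35.4% of all genes, and 37.3% lay above without overlap. At an unadjusted p under 0.05 the count was also 4 of 6, beside 49.7% of all genes. With spike-in scaling the calls over all genes split into 142 higher and 4593 lower, against 4160 and 3369 here, and with median centring into 5692 and 1898. The 5 negative differences stayed negative under all 18 alternative settings tried. They ranged from -1.54 to -0.46 for Cybb, -2.10 to -0.95 for Nox4, -1.05 to -0.39 for Ncf1, -1.32 to -0.64 for Ncf4 and -1.10 to -0.34 for Rac2. The calls were less stable than the signs. Leaving out MDX_JJ101 replicate 1 kept 4 calls. Leaving out MDX_JJ101 replicate 2 left 1 (Ncf1, adjusted p = 0.046), with Cybb at -0.63 and Nox4 at -0.95, and leaving out any one of the 2 MDX_tap or the 2 B10_tap arrays left 0.

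The slide placed MDX_JJ101 and MDX_tap arrays in the same columns, so the difference could be read within each column. In columns 3 and 4 it was -0.80 and -1.37 for Cybb, and -1.03 and -2.02 for Nox4. Ncf1 gave -0.81 and -0.47. Ncf4 gave -0.86 and -0.97, and Rac2 gave -0.87 and -0.51, so that each of the 5 was negative in both columns. Cyba gave 0.017 and 0.023. With the column as a block, to which the B10_tap arrays, each alone in its column, added no spread, no subunit passed (adjusted p = 0.058 to 0.074 for the 4 called above) and no gene of the array did, although 8857 had an unadjusted p under 0.05.

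**Figure D3:**
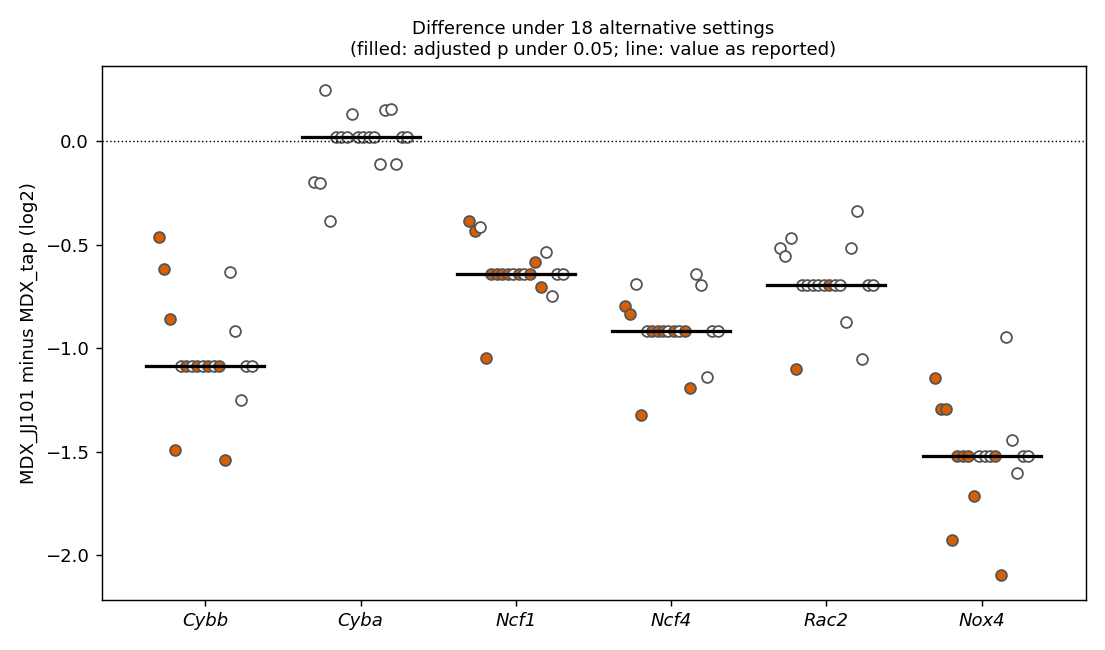
Difference of each subunit in MDX_JJ101 minus MDX_tap, in log2, under 18 alternative settings (points, filled where the adjusted p was under 0.05), with a line at the value given in the text. Cybb, Ncf1, Ncf4, Rac2 and Nox4 lie below 0 throughout, whereas Cyba lies on both sides of 0.

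For MDX_tap relative to B10_tap, 0 of 6 subunits passed limma's test, against 0.024% of all genes (5 of 20869, all 5 lower in MDX_tap). At an unadjusted p under 0.05 the count was 4 of 6 (Ncf1, Nox4, Rac2 and Ncf4), beside 21.0% of all genes. Both MDX_tap arrays lay above both B10_tap arrays for all 6 subunits, as they did for 24.4% of all genes, while 37.0% of all genes lay the other way. The median difference was 0.86, beside -0.060 over all genes, and the sign of all 6 was positive in all 17 alternative settings. Some settings made a call. Ncf1 passed in 5 of the 17, among them normexp background correction and quantile normalization (difference 0.62, adjusted p = 0.030), the authors' series table (0.71, adjusted p = 0.034) and median centring (1.15, adjusted p = 0.046). Nox4 passed in 2, with normexp (1.29, adjusted p = 0.041) and with spike-in scaling (1.72, adjusted p = 0.0012).

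MDX_JJ101 relative to B10_tap shares its arrays with both comparisons above and so adds no separate evidence. Of 6 subunits 0 passed, while 33.6% of all genes passed, 16.2% higher and 17.4% lower. At an unadjusted p under 0.05 the count was 1 of 6 (Ncf1), beside 47.9% of all genes. The MDX_JJ101 arrays lay above the B10_tap arrays without overlap for Cyba and Ncf1, as for 37.9% of all genes, and below it for 0 subunits and 37.3% of all genes. The differences of the others were -0.38 ± 0.31 for Cybb, -0.080 ± 0.26 for Ncf4, 0.19 ± 0.27 for Rac2 and 0.19 ± 0.39 for Nox4. Their 95% intervals were wide, from -1.17 to 0.42 for Cybb and from -0.81 to 1.19 for Nox4, so a level close to that of B10_tap was not shown. Each of these 4 signs turned in at least 1 setting, among them median centring for Cybb (0.024) and Ncf4 (0.32) and spike-in scaling for Rac2 (-0.20) and Nox4 (-0.21). Without MDX_JJ101 replicate 1, Cybb passed as lower than in B10_tap (-0.83, adjusted p = 0.037).

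**Figure D4:**
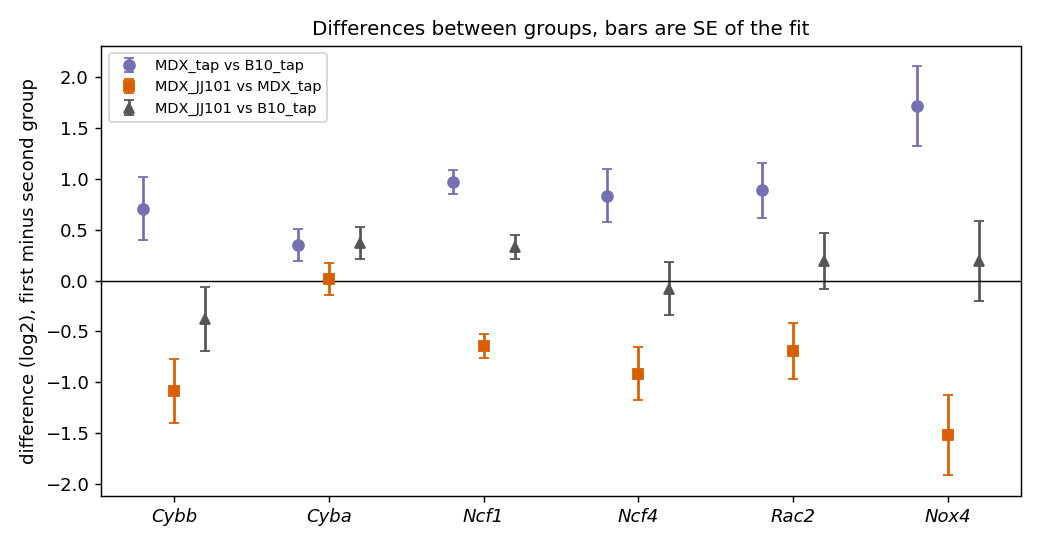
Difference of each subunit between groups in log2, first minus second group as named in the legend, with bars of 1 standard error of the fit. Circles (MDX_tap relative to B10_tap) are above 0 for all 6 subunits, squares (MDX_JJ101 relative to MDX_tap) are below 0 for all but Cyba, and triangles (MDX_JJ101 relative to B10_tap) lie between -0.38 and 0.37, where scaling can turn their sign.

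Over the 6 arrays, Ncf4 followed Cybb (Pearson r = 0.945) and Rac2 (r = 0.944) most closely, and Cyba followed Cybb least (r = 0.348). These correlations describe 6 arrays in 3 groups. The root mean square difference between 2 centred profiles was smallest for Ncf4 and Rac2 (0.16 log2 units) and largest for Cyba and Nox4 (0.76). Among 13367 other named genes, the nearest to Cybb by this distance were Ccl19, a chemokine, Rnase6, a ribonuclease, Ifi44, an interferon-induced gene, and Tnfrsf4, a receptor of activated T cells, at 0.075 to 0.091. Nearest to Ncf4 were Fyb, an adaptor of T and myeloid cells, Lrrc25, Cyth4 and Coro1a, an actin-binding protein of leukocytes, at 0.079 to 0.094. Rac2 was nearest to Rassf5, Selplg, the ligand of P-selectin, Myo1g, a myosin of blood cells, and Fcer1g, the signalling chain of Fc receptors, at 0.074 to 0.082. Ncf1 lay closest to Kcne4, a potassium channel subunit, Rbm47, an RNA-binding protein, and Inhbb, an inhibin subunit, at 0.062 to 0.086. Cyba was nearest to Zbtb8a, Rps6ka1, a kinase of the ribosomal S6 family, Fzd2, a Wnt receptor, and Trim47, at 0.045 to 0.065. Nox4 had no gene as near, its closest being Prg4, the lubricant proteoglycan, Bdh2, Mpeg1, a pore-forming protein of macrophages, and Dio2, the thyroid hormone deiodinase, at 0.16 to 0.20.

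The other genes of the oxidase were read from a list of 16 partners, of which 11 were tested. In MDX_JJ101 relative to MDX_tap, 1 rose, 2 fell and 8 did not pass, whereas 19.9% of all genes rose and 16.1% fell. Poldip2, a protein that binds p22phox and raises NOX4 activity in vascular smooth muscle, rose by 1.06 ± 0.092 (adjusted p = 0.012). It read 4.10 and 4.15 in MDX_JJ101, 3.05 and 3.08 in MDX_tap and 3.29 and 3.26 in B10_tap, so the MDX_JJ101 arrays stood above all others. With spike-in scaling 0 partners rose and 6 fell. Cybc1, the chaperone that gp91phox and p22phox need to mature, fell by 0.55 ± 0.11 (adjusted p = 0.020). Its mean level was 1.44 in MDX_JJ101, 1.99 in MDX_tap and 1.44 in B10_tap, and the MDX_tap arrays stood above all others. Rac3, a GTPase close to Rac2, fell by 0.52 ± 0.14 (adjusted p = 0.042).

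Of the partners that did not pass, Rac1, the GTPase present in most cells, differed by 0.18 ± 0.093 (adjusted p = 0.174). Hvcn1, the proton channel that balances the charge moved by the oxidase, had -0.70 ± 0.23 (adjusted p = 0.068). Another Hvcn1 probe, A_55_P1960053, read -0.80 and -1.12 in MDX_JJ101, 0.34 and -0.17 in MDX_tap and -1.03 and -0.99 in B10_tap. Nox1, the catalytic subunit known from colon, and its organiser Noxo1 had 0.34 ± 0.31 and 0.080 ± 0.15. A second Nox1 probe, A_51_P364714, was well above background on no array. Sh3pxd2b, a scaffold related to p47phox, had -0.10 ± 0.16, and it was higher in MDX_JJ101 than in B10_tap by 0.71 ± 0.16 (adjusted p = 0.029). Noxa1, Duox1 and the probe that stood for Sh3pxd2a were well above background on no MDX_JJ101 array, so their levels there are bounds. Another Sh3pxd2a probe, A_55_P2129866, was well above background on MDX_JJ101 replicate 1 and not on replicate 2. It read -2.85 and -4.46 in MDX_JJ101, on both sides of -3.74 and -3.61 in MDX_tap. Nox3 and Duoxa2 were well above background on no array, and Duox2 and Duoxa1 had no matched probe. In MDX_tap relative to B10_tap 0 of the 11 partners passed, and the median was -0.084. Of the 11, 3 had an unadjusted p under 0.05, beside 21.0% of all genes.

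Of 8 Rac exchange factors and inhibitors, 3 fell and 0 rose in MDX_JJ101 relative to MDX_tap, with a median of -0.60. Over all genes 36.1% were called, so that count of calls in either direction lies near the background. Arhgap25, a Rac GTPase-activating protein of phagocytes, fell by 0.64 ± 0.11, Vav3, an exchange factor, by 0.61 ± 0.11 and Arhgdib, the GDP-dissociation inhibitor of blood cells, by 0.62 ± 0.14 (adjusted p = 0.017, 0.018 and 0.029). Prex1, an exchange factor of neutrophils, had -0.49 ± 0.17 without passing (adjusted p = 0.081). Of 10 kinases that act on the oxidase, 3 rose and 3 fell, with a median of -0.048, beside 19.9% of all genes that rose and 16.1% that fell. Akt1 rose by 0.78 ± 0.12, while Prkcb, a protein kinase C of leukocytes, fell by 0.89 ± 0.10 (adjusted p = 0.014 and 0.013). Pak1 and Pik3cg were not well above background in MDX_JJ101. They were at least 2.00-fold and 1.86-fold lower there (adjusted p of the fitted differences = 0.012 and 0.024).

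Of 7 myeloid transcription factors tested, 5 fell and 1 rose in MDX_JJ101 relative to MDX_tap, beside 16.1% and 19.9% of all genes. Irf8, a factor of macrophage development, fell by 0.76 ± 0.19 and Irf1, the interferon-induced factor, by 0.59 ± 0.13 (adjusted p = 0.033 and 0.025). Runx1, a factor of blood development, passed as lower and was well above background on 1 of the 2 MDX_JJ101 arrays (adjusted p = 0.022). Ikzf1, the Ikaros factor of lymphoid cells, lay at least 1.13-fold below MDX_tap (adjusted p of the fitted difference = 0.016). Cebpb, induced in stress and inflammation, rose by 0.91 ± 0.20 (adjusted p = 0.024). Spi1, which encodes PU.1, was well above background only on the MDX_tap arrays. It was at least 1.32-fold higher in MDX_tap than in B10_tap without passing (adjusted p of the fitted difference = 0.208). Its level was -3.81 and -4.32 in MDX_JJ101 and -3.83 and -3.69 in MDX_tap, so these arrays overlapped. The lowest level called well above background was -3.33 and -3.29 in MDX_JJ101, higher than the -4.14 and -3.90 in MDX_tap.

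Markers of other cell types were read beside the subunits, and their part in the subunit results was not tested. In bulk RNA, fewer cells of a type and less RNA per cell cannot be told apart. Of 15 macrophage markers tested, 9 fell and 1 rose (Itgam, by 0.39) in MDX_JJ101 relative to MDX_tap, with a median of -0.65. Over all genes 16.1% fell and 19.9% rose. All 15 were well above background on all 6 arrays. The summed signal of the 15 markers, in units of each array's 75th percentile, was 134 and 122 in MDX_JJ101, 204 and 161 in MDX_tap and 136 and 130 in B10_tap. Mrc1, the mannose receptor, fell by 1.27 ± 0.22, Lyz2, a lysozyme, by 1.34 ± 0.25, Cd14, the endotoxin co-receptor, by 1.04 ± 0.20 and Adgre1, the F4/80 antigen, by 1.30 ± 0.26 (adjusted p = 0.015, 0.018, 0.019 and 0.020). Without MDX_JJ101 replicate 2 only 1 macrophage marker fell, without either B10_tap array 4 did, and without either MDX_tap array 0 did. Against B10_tap, 0 of 15 passed in MDX_tap, and the median was 0.63. At an unadjusted p under 0.05 the count was 10, beside 21.0% of all genes.

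Fibroblasts are a known site of Nox4. Of 10 fibroblast markers 4 fell in MDX_JJ101 relative to MDX_tap and 0 rose, with a median of -0.94. For comparison, 16.1% of all genes fell and 19.9% rose. The summed signal of the fibroblast markers was 434 and 288 in MDX_JJ101, 743 and 799 in MDX_tap and 502 and 473 in B10_tap. Most of that sum came from Dcn on every array. Dcn and Lum, matrix proteoglycans, fell by 1.25 ± 0.17 and 1.62 ± 0.29, Fap, a surface protease, by 1.13 ± 0.20 and Pdgfra, a growth factor receptor, by 0.66 ± 0.16 (adjusted p = 0.013, 0.016, 0.016 and 0.031). Of 8 endothelial markers 5 fell and 0 rose, with a median of -0.51 and a summed signal of 58.6 and 51.6 in MDX_JJ101, 80.5 and 78.5 in MDX_tap and 78.2 and 73.9 in B10_tap. Kdr and Tek, receptors of vessel growth, both fell by 0.75, Vwf by 0.73 and Emcn by 0.57 (adjusted p = 0.019, 0.015, 0.018 and 0.016). In MDX_tap relative to B10_tap 0 of the 10 and 0 of the 8 passed. At an unadjusted p under 0.05 the counts were 6 and 3, beside 21.0% of all genes. The medians were 0.58 for the fibroblast list and -0.16 for the endothelial list, in which 5 of 8 differences were negative, beside 0.86 for the subunits.

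The 4 B cell markers tested passed as lower in MDX_JJ101 relative to MDX_tap. Cd22 and Cd79b fell by 0.75 ± 0.11 and 1.31 ± 0.28 (adjusted p = 0.013 and 0.023). Ms4a1 was at least 1.68-fold lower (adjusted p of the fitted difference = 0.032). The summed signal of the 4 was 0.935 and 0.870 in MDX_JJ101, 2.30 and 1.70 in MDX_tap and 2.09 and 1.95 in B10_tap. Blk was well above background on no array. Of 9 T and NK cell markers 3 passed as lower, Cd3d, Cd3g and Klrd1 (adjusted p = 0.030, 0.032 and 0.029). Over all genes 36.1% passed, 16.1% as lower, so the T and NK count of calls in either direction lies near the background. Klrd1 was at least 1.28-fold lower, and no size is given for Cd3d and Cd3g, which were well above background on 1 of the 2 MDX_JJ101 arrays. Cd2 had -0.72 ± 0.30 (adjusted p = 0.116) and Cd8a was well above background on no array. The summed signal of the 9 was 7.76 and 7.49 in MDX_JJ101, 9.73 and 8.90 in MDX_tap and 9.34 and 9.26 in B10_tap. Most of that sum came from Cd3e, Cd4 and Nkg7, which did not pass. Of 12 neutrophil markers 5 were tested, and Mpo, Ltf, Ngp, Cxcr2 and Mmp8 were well above background on no array. Elane, an elastase, fell by 0.75 ± 0.14 (adjusted p = 0.018), and Camp passed without being well above background in MDX_JJ101 (adjusted p = 0.027). Csf3r and S100a8 had -0.37 ± 0.12 and -0.78 ± 0.80 and did not pass. The summed signal of the 5 was 44.7 and 41.5 in MDX_JJ101, 55.4 and 58.4 in MDX_tap and 66.3 and 60.9 in B10_tap. Most of that sum came from Csf3r on every array. Against B10_tap, 0 markers in MDX_tap of these 3 lists passed. At an unadjusted p under 0.05 there was 1 of each list, beside 21.0% of all genes. The medians were -0.28 for B cells, with 3 of 4 differences negative, 0.51 for T and NK cells and 0.10 for neutrophils.

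Over the 10 lists together, 40 of 87 tested genes passed as lower and 6 as higher in MDX_JJ101 relative to MDX_tap, beside 16.1% and 19.9% of all genes. The rises depended on the scaling, with 0 higher and 56 lower under spike-in scaling and 6 higher and 27 lower under median centring. Leaving out MDX_JJ101 replicate 1 gave 5 higher and 44 lower, and leaving out MDX_JJ101 replicate 2 gave 3 and 14. Without MDX_tap replicate 1 the counts were 1 and 3, without MDX_tap replicate 2 they were 0 and 0, and without either B10_tap array they were 2 and 18. In MDX_tap relative to B10_tap 0 of the 87 passed and 41 had an unadjusted p under 0.05, beside 21.0% of all genes. With median centring 7 were higher and 0 lower.

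**Figure D5:**
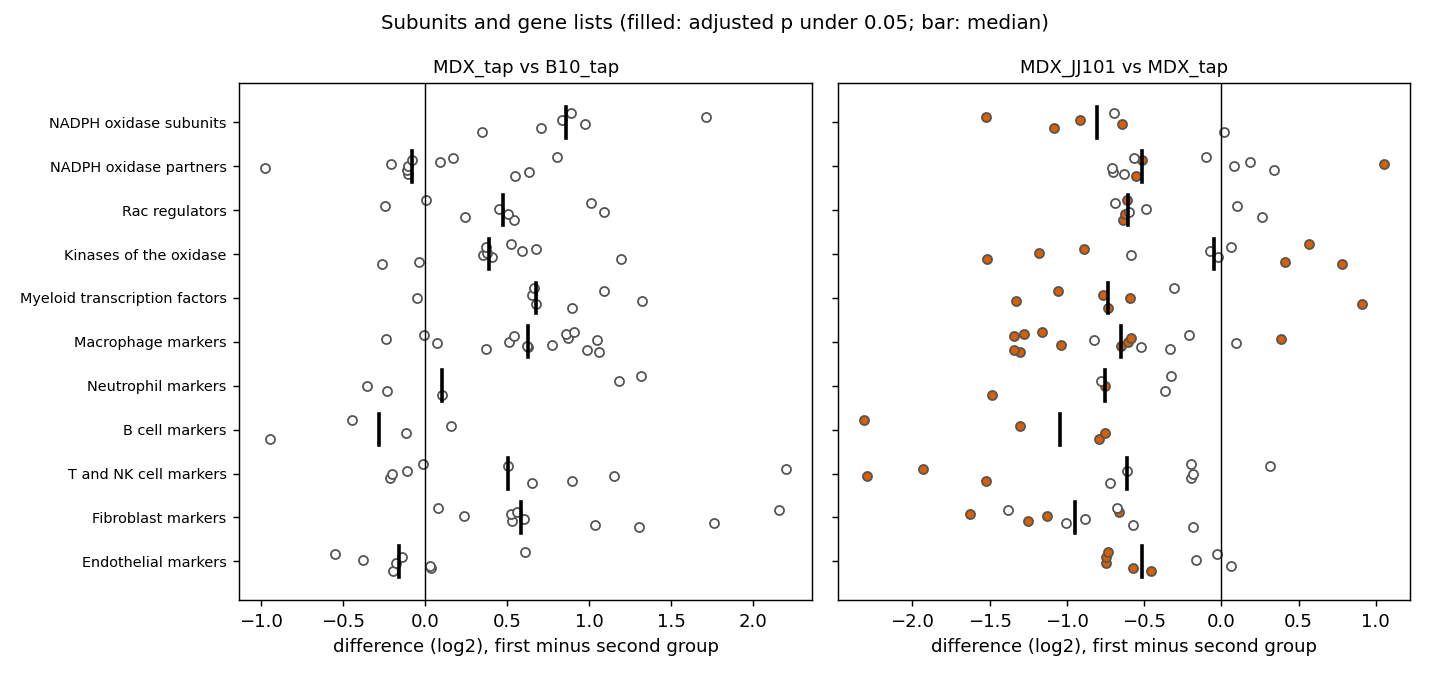
Difference in log2 of each tested gene of the subunits and of 10 lists, for MDX_tap minus B10_tap (left) and MDX_JJ101 minus MDX_tap (right), filled where the adjusted p was under 0.05, with a bar at each median. Genes that were not well above background in 1 group are drawn at their fitted difference, which is not a measured fold. No point is filled on the left, and on the right 40 of the 87 list genes are filled below 0 and 6 above it.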

How the data were processed

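Scanned images were turned into the deposited intensity values with Agilent Feature Extraction (version 11.5.1.1), per the submitters' processing notes. The processed signal in the deposited files is a background-subtracted intensity, and 0 or 1 flags, here called other values, mark outlier, saturated and well-above-background spots per the file headers. No subunit spot and no other non-control spot was saturated (0 on each array). The authors' series table holds log2 values that follow the median spot signal after quantile-like scaling, with column medians of 5.68 to 5.69. It served as an alternative only.

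The processed signals were taken to log2 and each array was centred on the 75th percentile of its 59305 non-control spots. Spots marked as outliers were dropped before the remaining spots of each probe were averaged. Probes that exceeded background on both arrays in 1 or more groups were kept (27258 of 55681), and the probe with the highest mean stood for its gene, giving 20869 genes and transcripts (13952 with a symbol). Symbols came from RefSeq accessions of assembly GRCm38.p6, while the array files give coordinates on mm9, none of which is printed. A single limma fit (version 3.58.1, R 4.3.3) covered all 6 arrays, with 3 residual and 2.21 prior degrees of freedom. Its two-sided p-values were adjusted by Benjamini and Hochberg's method across the whole array, with a threshold of 0.05. The fit was tested on simulated data. The mean signal column was absent, so normexp used the median signal, with an offset of 50.

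The members, lists, motifs and tests were chosen with earlier results of these data known. By the rule used, the text names all 6 subunits and their probes, every detected partner, the 4 members of every other list with the smallest p in MDX_JJ101 relative to MDX_tap, Spi1 and Irf8, and the 4 named genes nearest each subunit. A few of these genes are not reported here. Itgam and undetected markers were named after their values were seen. Alternatives covered background, scaling, filter, probe choice, groups fitted, blocks, a variance trend and each array left out.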

Additional observations from a re-analysis of the deposited data

How the results depend on the processing

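No member changed sign in MDX_tap relative to B10_tap, nor did the 5 negative subunits in MDX_JJ101 relative to MDX_tap, under the alternatives tried. In MDX_tap relative to B10_tap the number of subunits called moved from 0 to 2 with normexp and quantile normalization and to 1 in the authors' series table, with median centring, with spike-in scaling, with only probes well above background on all arrays, and with a variance trend. Calls over all genes moved from 5 to 396, 337, 285, 529, 151 and 316 in the same settings, to 0 without a filter on dim probes, 15 with every probe fitted and 125 with only the 2 groups compared. Higher against lower calls were 294 and 102, 258 and 79, 242 and 43, and 277 and 252 in the first 4 of these. Leaving out 1 array gave 0 to 125 calls over all genes and 0 subunits in each case.

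In MDX_JJ101 relative to MDX_tap the 4 subunits called became 2 with median centring (Cybb and Nox4), 2 without a filter (Ncf1 and Nox4), 0 with only the 2 groups compared and 0 with the slide column as a block. Calls over all genes became 4735 with spike-in scaling, 13640 without a filter, 3247 with 2 groups and 0 with the column block, from 7529. Leaving out 1 array gave 48 to 7701 calls over all genes and 0 to 4 subunits. The direction of Cyba reversed with normexp (-0.20), in the authors' series table (-0.20), with spike-in scaling (-0.38) and without MDX_JJ101 replicate 1 or MDX_tap replicate 2 (-0.11 each), in a range of -0.11 to 0.15 with 1 array left out.

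In MDX_JJ101 relative to B10_tap the count moved from 0 to 2 subunits with median centring (Cyba 0.77, Ncf1 0.73) and to 1 without MDX_JJ101 replicate 1, so leaving out 1 array gave 0 to 1. Calls over all genes became 14092 without a filter, from 7008, and 76 to 6908 with 1 array left out. Calls split into 3376 higher and 3632 lower, against 149 and 4880 with spike-in scaling and 8457 and 1645 with median centring. Directions reversed with median centring for Cybb (0.024) and Ncf4 (0.32), with spike-in scaling for Cyba (-0.030), Ncf1 (-0.068), Rac2 (-0.20) and Nox4 (-0.21). They also reversed without MDX_JJ101 replicate 1 for Nox4, without MDX_JJ101 replicate 2 for Cybb and Ncf4, and without B10_tap replicate 1 for Ncf4 and Nox4 (0.094 and -0.019). With 1 array left out the range was -0.83 to 0.077 for Cybb, -0.35 to 0.19 for Ncf4 and -0.38 to 0.77 for Nox4. The cause of these changes was not tested, except that fewer arrays leave fewer degrees of freedom.

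Same-numbered arrays correlated at 0.163 between MDX_JJ101 and MDX_tap, -0.064 between MDX_JJ101 and B10_tap and -0.031 between MDX_tap and B10_tap, and with 2 arrays in each group these values do not settle whether the numbers pair the samples. For MDX_JJ101 and MDX_tap the number coincides with the slide column, whose block is given above. With the replicate number as a block, calls over all genes were 4, 6517 and 5863 in the 3 comparisons and subunits called were 0, 4 and 0, with Rac2 gained (adjusted p = 0.040) and Nox4 lost (adjusted p = 0.052) in MDX_JJ101 relative to MDX_tap. Signal over background limits Cybb, and 2 arrays in each group limit all of these values.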
